A study of Mus musculus with 2 samples.

Results

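Pcbp1, Pcbp2 and Ptbp1 encode RNA-binding proteins that recognise pyrimidine-rich RNA, and the results below follow their own mRNAs in a HuR immunoprecipitate. All spotted cDNA clones that the deposited table assigns to these genes by gene number were taken, which gave 4 of the 16896 clones on the array. Pcbp2 (Entrez Gene 18521, chromosome 15) had 2 clones, Pcbp1 (Entrez Gene 23983, chromosome 6) had 1, and Ptbp1 (Entrez Gene 19205, chromosome 10) had 1. The 3 genes were picked with their HuR and IgG values known, so the differences between the antibodies are given as a description.

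RNA was recovered from extracts of proliferating, untreated C2C12 cells, a mouse myoblast line, either with the monoclonal anti-HuR antibody 3A2 or with a control IgG, which the table's columns call IgG1. The cells were kept in DMEM with 20% FBS and 1% Pen/Strep and harvested at 80% confluency. The study asks which transcripts are enriched with HuR, and it has 1 sample for each antibody, each measured in 3 array runs. The table heads 1 run of each antibody with no number and the others with 3 and 4. The sources do not say if a run is a new hybridisation or a new immunoprecipitation, so an SD here is the spread between runs, and no test between the antibodies can be made with 1 sample on each side.

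Poly(C)-binding proteins bind C-rich single-stranded RNA through KH domains and act on the stability and translation of mRNAs. Pcbp1 is an intronless gene that arose by retrotransposition of a Pcbp2 transcript, and the proteins of both genes, also called hnRNP E1 and hnRNP E2, are closely related. Ptbp1, also called hnRNP I, binds CU-rich tracts through RNA recognition motifs and is best known as a repressor of exon inclusion, among them exons used in muscle and nerve. HuR (Elavl1), the bait of the immunoprecipitation, binds U-rich and AU-rich stretches, often in 3' UTRs, and stabilises many of the mRNAs it binds.

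The Pcbp1 and Pcbp2 genes also share a stretch of similar DNA before their annotated transcription starts, the origin of which was not tested. Spotted cDNAs of close copies need not hybridise to 1 gene only. This stretch cannot show that, as it lies outside the annotated transcripts. In the 250 bases before each RefSeq start (build GRCm38.p6), the best local alignment spanned 46 bases without a gap, of which 40 (87.0%) were identical. In Pcbp1 it lies at chr6:86526195-86526240 on the minus strand, from 51 to 6 bases before the start. In Pcbp2 it lies at chr15:102470472-102470517 on the plus strand, from 67 to 22 bases before the start. Both are written 5′ to 3′, with the identical bases in capitals.
Pcbp1: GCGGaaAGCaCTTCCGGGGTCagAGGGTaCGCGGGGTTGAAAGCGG
Pcbp2: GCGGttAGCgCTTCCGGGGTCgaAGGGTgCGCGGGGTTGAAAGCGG
The longest identical run, CGCGGGGTTGAAAGCGG, was found on either strand in 4 of the 32851 promoter windows (0.0122%), which belong to Pcbp1, Pcbp2 and the gene Gm36331. Pcbp1 and Pcbp2 had to be among these genes, as the run was taken from their alignment. The alignments of Ptbp1 with Pcbp1 and with Pcbp2 spanned 17 and 14 bases. The inserts of the array clones were not compared, and the array does not measure this DNA.

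Values below are z scores, the authors' scores of each run with a mean of 0 and an SD of 1 in each of 2 array sections, which were then centred on the section's median. They rank a spot among the others of its run and are not amounts of RNA. A difference is HuR minus IgG within a run pair of the same number, averaged over the 3 pairs, with its SD over those pairs. A difference of at least 1 z score unit was used as the threshold in place of a fold change, which scores do not allow.

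Pcbp2 mRNA was higher with HuR on both of its clones, by 1.91 ± 0.46 on plate 127 and 1.64 ± 0.39 on plate 150 (SD, n = 3 run pairs). On the plate 127 clone the HuR scores were 3.03 in the unnumbered run, 1.65 in run 3 and 2.33 in run 4. Its IgG scores in the same order were 0.81, 0.27 and 0.19. The lowest HuR run of this clone thus lay 0.84 above its highest IgG run.

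On the plate 150 clone of Pcbp2 the HuR scores were 2.23, 1.09 and 1.55 and the IgG scores 0.29, -0.11 and -0.24, in the unnumbered run, run 3 and run 4. The gap between the lowest HuR and the highest IgG run was 0.80. The order of the run pairs was the same on both clones, with differences of 2.22 and 1.94 in the unnumbered pair, 2.14 and 1.79 in pair 4, and 1.38 and 1.20 in pair 3. Taken as the median of its clones, Pcbp2 stood at 1.78 ± 0.43.

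Ranks within a run show the same values without the z score scale, and since a rank also depends on the spotted DNA, each spot is set only against itself. The plate 127 clone of Pcbp2 lay at percentiles 59.2 to 77.7 of its array section in the IgG runs and 94.3 to 99.8 in the HuR runs. The plate 150 clone lay at 37.7 to 62.3 with IgG and 85.6 to 97.2 with HuR. In both clones the lowest HuR percentile was above the highest IgG percentile.

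Ptbp1 mRNA was higher with HuR by 0.93 ± 0.17 on its 1 clone, just under the threshold. Its HuR scores were 2.06 in the unnumbered run, 1.99 in run 3 and 2.28 in run 4, and its IgG scores were 1.33, 0.97 and 1.25. The runs of the antibodies did not overlap, with a gap of 0.66. The spot was already at percentiles 83.0 to 87.6 of its section in the IgG runs and was at 95.6 to 97.2 in the HuR runs.

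The Ptbp1 difference was lowest in the unnumbered pair, at 0.73, and stood at 1.02 and 1.03 in pairs 3 and 4. Without the lowest of these its mean was 1.03, past the threshold, and the median of the 3 pairs was 1.02. Its SD over run pairs (0.17) was below those of the Pcbp2 and Pcbp1 clones, which ran from 0.39 to 0.48.

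Pcbp1 mRNA gave a smaller and less even value, 0.58 ± 0.48 on its 1 clone. Its HuR scores were 0.96 in the unnumbered run, 0.20 in run 3 and 0.22 in run 4, and its IgG scores were -0.17, -0.01 and -0.19. Every HuR run lay above every IgG run, with a gap of 0.21, but the unnumbered HuR run stood apart from the other two. Over the pairs the difference was 1.13 (unnumbered), 0.21 (3) and 0.41 (4), and pairs 3 and 4 alone gave a mean of 0.31.

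The order of the differences was Pcbp2, Ptbp1, Pcbp1. Pcbp2 exceeded Pcbp1 by 1.20 ± 0.32 and Ptbp1 by 0.85 ± 0.54 (SD, n = 3 run pairs), with Pcbp2 the higher in each pair. Ptbp1 exceeded Pcbp1 by 0.34 ± 0.65, a value smaller than its own SD, and was the lower of the 2 in the unnumbered pair. These neighbours in the order thus did not differ beyond their spread, and spots of different genes need not answer on the same scale.

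**Figure D1:**
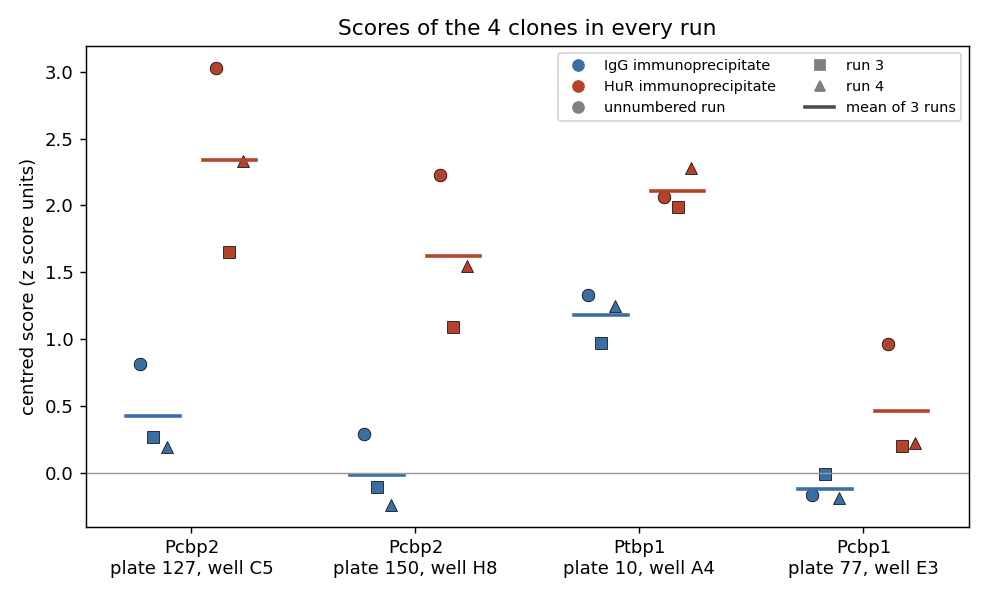
Centred scores (z score units, vertical axis) of the 4 clones in each of the 3 runs of the IgG and the HuR immunoprecipitate, with the symbol marking the run and the bar the mean of the 3 runs. In each clone the HuR points lie above the IgG points, by the widest gap in Pcbp2 (0.84 and 0.80) and the narrowest in Pcbp1 (0.21).

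Among the 8452 features in the brighter 50% of the array by mean signal, 132 (1.56%) were at least 1 unit higher with HuR and 8 (0.0947%) at least 1 unit lower. The members' genes held 2 of the 132, both of them Pcbp2 clones, at ranks 26 and 49 of the brighter 50%. Ptbp1 ranked at 147 and Pcbp1 at 324. Each of the 4 clones had every HuR run above every IgG run, a pattern seen in 385 (4.56%) of these features, and since the genes were picked on this contrast nothing is read from that.

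All 4 clones passed the filter on signal, which is a mean over both antibodies. With IgG alone, Pcbp1 averaged -0.12 ± 0.10 and the plate 150 clone of Pcbp2 -0.02 ± 0.28 (SD, n = 3 runs). The other Pcbp2 clone averaged 0.42 ± 0.34 and Ptbp1 1.18 ± 0.19. Pcbp1 and the plate 150 clone of Pcbp2 thus lay near the array's median in the control. Their IgG means were below the filter's limit of -0.005, so these clones passed it through their HuR scores. For them the filter was not independent of the difference between the antibodies. Nothing is therefore read from their ranks or counts among the features that passed.

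**Figure D2:**
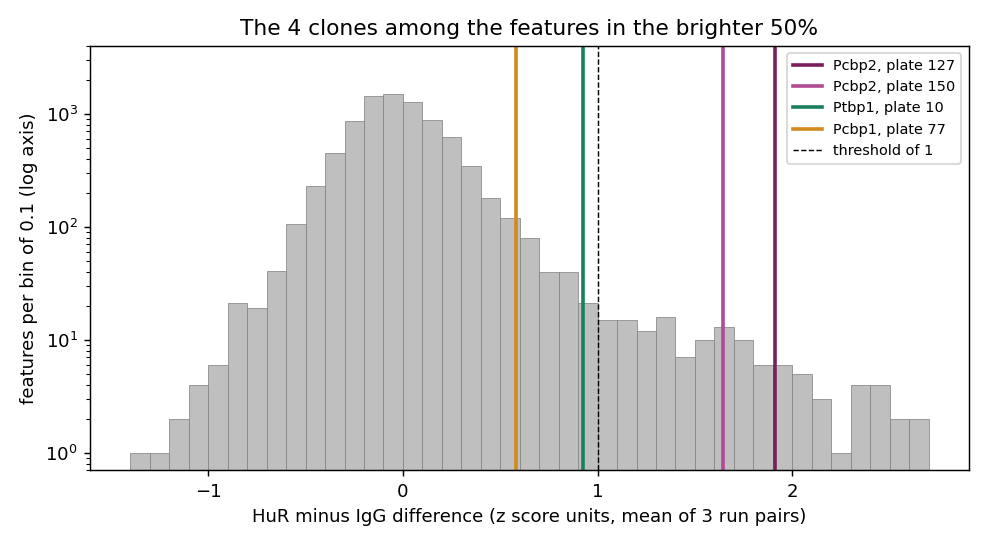
Number of features of the brighter 50% (log axis) by their mean HuR minus IgG difference in bins of 0.1 z score units, with coloured lines at the 4 clones and a dashed line at the threshold of 1. The Pcbp2 clones stand at 1.91 and 1.64 in the sparse upper tail, Ptbp1 at 0.93 just short of the threshold, and Pcbp1 at 0.58.

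The 2 clones of Pcbp2 come from different source plates and different blocks of the array, and they differed by 0.27 from each other. Among 471 genes with exactly 2 clones in the brighter 50%, the median gap between the clones was 0.20, with quartiles of 0.09 and 0.38, and 39.5% of these genes had a wider gap than Pcbp2. Of 624 genes with at least 2 such clones, 34 had some clone at or above 1, and in 4 (0.641%) every clone was. Pcbp2 was 1 of those 4, which its choice on these values fixed, and its plate 150 clone, at -0.02 with IgG alone, is among the brighter 50% through its HuR scores, so nothing is read from this count. For Pcbp1 and Ptbp1, with 1 clone each, no such comparison of clones can be made.

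The source plates tell the clones apart. On plates 127 and 150 the Pcbp2 clone was the only 1 of 96 wells at or above 1. The 8 wells adjoining the plate 127 clone had differences from -0.18 to 0.18 with a median of 0.02, and the 5 wells adjoining the plate 150 clone, which lies on the plate's edge, ran from -0.16 to 0.15 with a median of -0.01. Less that median, the clones stood at 1.89 and 1.65.

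Pcbp1, in well E3 of plate 77, ranked 5 of 96 on its plate. The median of its 8 adjoining wells was -0.09 and the highest of them was at 0.33. Less that median, Pcbp1 was at 0.67.

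Ptbp1 came from well A4 of plate 10, which held more clones at or above 1 than any other of the 176 plates. Of its 96 clones 23 were that high, 21 of them in columns 1 to 4, and Ptbp1 ranked 27 on the plate. In its own row, an unnamed clone in well A2 was at 1.51 ± 0.18 and Coq10b in well A3, a coenzyme Q binding protein, at 1.02 ± 1.14. On the other side Smc1a in well A5, a cohesin subunit, was at 0.12 ± 0.41.

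The Coq10b value came mostly from run pair 3 (2.33, against 0.28 and 0.44 in the others). The A2 clone was lowest in the unnumbered pair, as Ptbp1 was, at 1.31 against 1.57 and 1.65. The median of the 5 wells adjoining Ptbp1 was 0.12, and less that median Ptbp1 was at 0.80. The part of the raised wells of plate 10 in the Ptbp1 value was not tested.

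Position on the array was looked at by block, where the 22 spots come from different plates. A block does not show where adjoining wells of a plate lie on the array, so position on the plate and on the array were not told apart. In their own blocks both Pcbp2 clones and the Ptbp1 clone had the highest difference of the 22 spots, and Pcbp1 the second highest. Since the genes were picked on this difference, nothing is read from these ranks. The medians of these 4 blocks ran from -0.14 to -0.04.

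**Figure D3:**
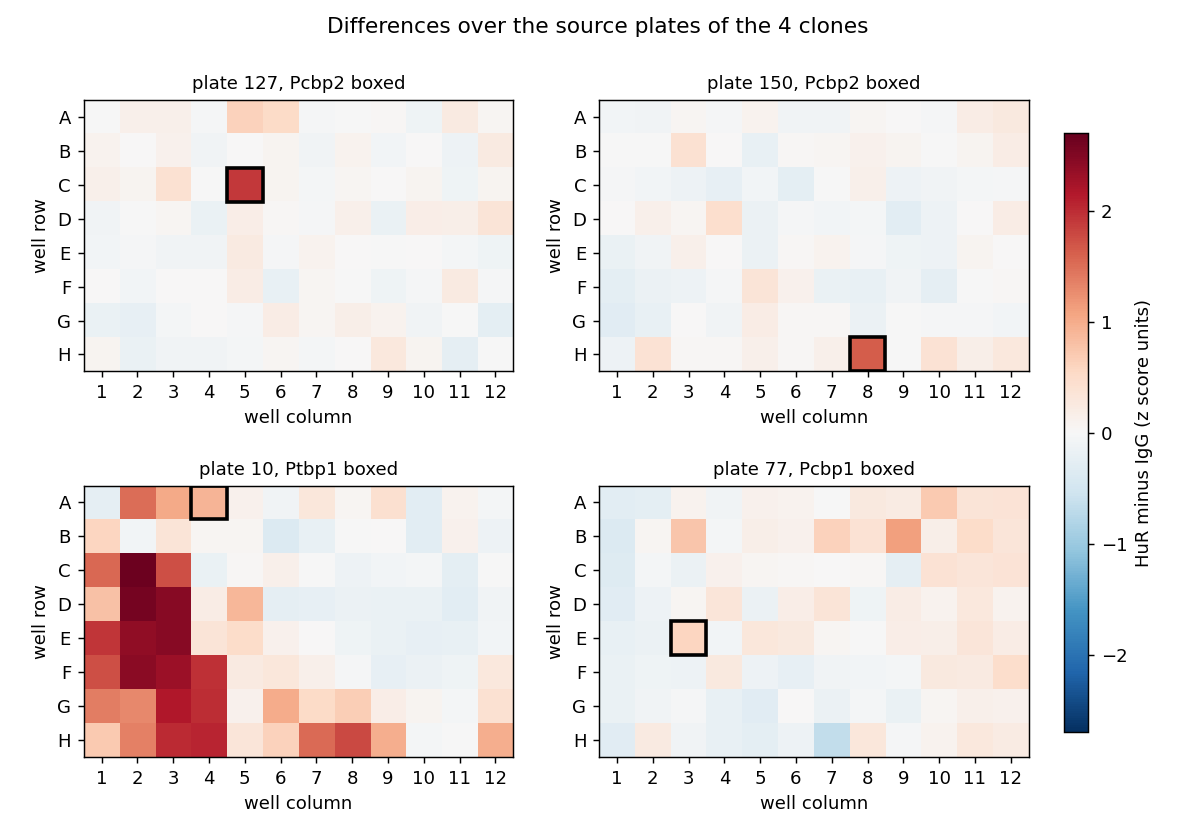
HuR minus IgG difference (colour, z score units) of the 96 wells of the 4 source plates, by well row and column, with the Pcbp2, Ptbp1 and Pcbp1 wells boxed. Both Pcbp2 wells stand alone among pale neighbours, and Ptbp1 lies at the upper edge of columns 1 to 4 of plate 10, which hold 21 of that plate's 23 clones at or above 1.

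In the authors' deposited table the z ratio, a difference scaled by the SD of all differences, was 6.38 and 5.47 for the Pcbp2 clones of plates 127 and 150. The authors' deposited table gave 3.09 for Ptbp1 and 1.95 for Pcbp1. The two-tailed p in the authors' deposited table, taken as unadjusted, was 0.03 for Pcbp1 and was rounded to 0.00 for the other 3 clones. How that p was computed is not given in the sources used here, nor is it known which kind of spread it covers.

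Relatives of the 3 proteins were looked at as a list of 25 genes. It held other poly(C)-binding proteins, other KH domain proteins, and other PTB family and PTB partner proteins. It also held the subunits of U2AF, a splice factor that reads polypyrimidine tracts, and other U-rich RNA binders including the Elavl family. On the array 14 of the 25 had a named clone and 11 were in the brighter 50%. None of the 11 (0 genes) was at least 1 unit higher or lower, against 1.42% and 0.0944% of all 4238 genes there. Their median was -0.03, beside -0.04 for all genes, with 4 above 0, 6 below and Hnrnpc at 0.

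Among the KH domain genes, Hnrnpk, the hnRNP that shares the poly(C) preference of the Pcbp proteins, was at -0.10 ± 0.43, with clones at 0.03 and -0.22. Fubp1, a KH domain protein named for an element upstream of Myc, was at -0.07 ± 0.05 on 1 clone, and its 3 dimmer clones lay from -0.12 to -0.04. Pcbp4, the more distant poly(C)-binding paralog, had only a dim clone, at -0.17 ± 0.24. Its run pairs gave -0.44, -0.07 and 0.00, none of them above 0. Pcbp3 had no named clone.

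In the PTB family, Ptbp2, the neural paralog of Ptbp1, was at 0.09 ± 0.30, from -0.19 in pair 3 to 0.41 in the unnumbered pair. Ptbp3 had no named clone, as 2 clones with a number of Ptbp3 also carried a conflicting one. Hnrnpl, a related CA-repeat binder, was at 0.26 ± 0.22, and its paralog Hnrnpll at 0.06 ± 0.31. The PTB cofactor Raver1 was at -0.14 ± 0.50, and Matr3, a nuclear matrix protein that binds PTB, at -0.03 ± 0.25. These SDs were nearly as large as the differences or larger.

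U2af1, the small U2AF subunit, was at -0.24 ± 0.08 and was below 0 in every run pair (-0.32, -0.16 and -0.25). With its adjoining wells subtracted it was at -0.14. The large subunit, U2af2, had no named clone. Hnrnpc, a U-tract binder, had 3 brighter clones from -0.26 to 0.10 and dimmer clones at -0.18 and 0.30. The dim clone at 0.30 was above 0 in every run pair (0.51, 0.10 and 0.28). Tia1, which binds U-rich RNA in stress granules, was at -0.21 ± 0.50, with a dimmer clone at -0.02. Elavl1, the mRNA of HuR, stood apart from the other relatives at 0.82 ± 0.12, and ran from 0.71 in pair 4 to 0.94 in the unnumbered pair. It lay between Ptbp1 and Pcbp1, but with the median of the adjoining wells subtracted it was at 0.53, below Pcbp1 at 0.67.

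Sfpq, the PTB-associated splicing factor, was not in the list and was added after its values were seen. Its 6 clones ran from -0.17 to 0.42, and the highest of them, on plate 73, was above 0 in every run pair (0.19, 0.38 and 0.69). None of the 6 reached the difference of Pcbp1 (0.58).

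**Figure D4:**
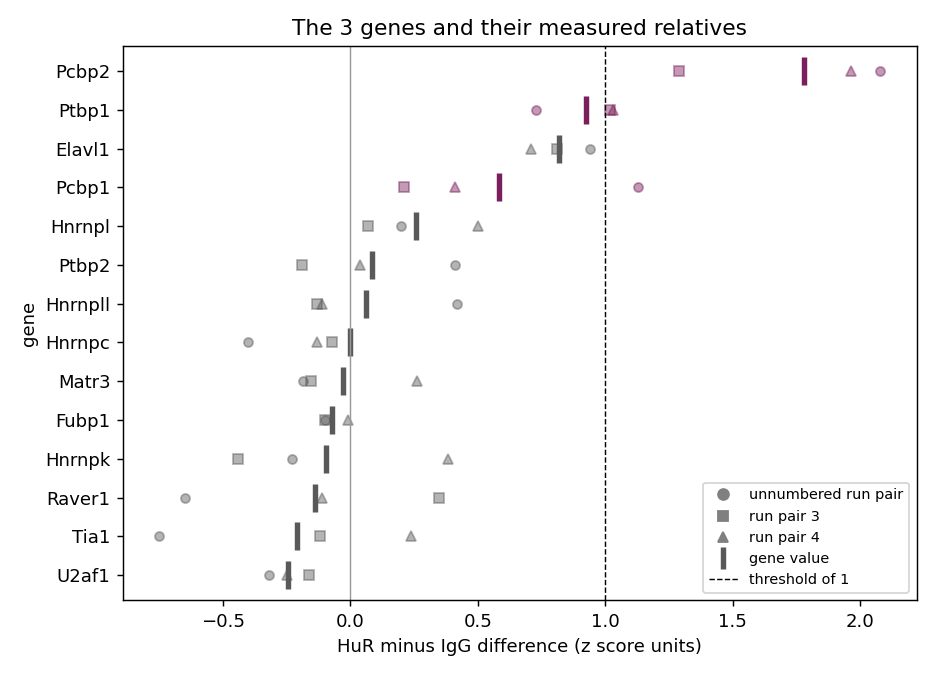
HuR minus IgG difference (z score units, horizontal axis) of Pcbp2, Ptbp1, Pcbp1 and the 11 measured relatives, with a symbol for each run pair, a bar for the gene value and a dashed line at the threshold of 1. Pcbp2 (1.78), Ptbp1 (0.93), Elavl1 (0.82) and Pcbp1 (0.58) lie above the others, of which Hnrnpl (0.26) is the highest and U2af1 (-0.24) the lowest.

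The genes with the most similar pattern were found by the Euclidean distance over the 6 run scores among 4238 genes. Nearest to Pcbp2 were Nfix (0.96), C78859 (0.97), Dolpp1 (1.03), 1500001N04Rik (1.08) and LOC55933 (1.11), with distances in z score units. Nfix, a nuclear factor I transcription factor, had a difference of 1.32 ± 0.52, with HuR scores of 2.31, 0.56 and 1.66. The other 4 genes had differences from 1.17 to 1.70, and each lay in a well whose adjoining wells had a median of at least 0.5, whereas the Nfix neighbours had a median of 0.10.

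Nearest to Ptbp1 were BC002292 (0.50), Ak4 (0.66), Atp13a1 (0.68), Ufd1 (0.75) and C78807 (0.79). All 5 had high scores with both antibodies and smaller differences than Ptbp1, from 0.40 to 0.75. Ak4, an adenylate kinase, was on plate 10 as well, and Ak4 and C78807 had raised adjoining wells. Atp13a1, an ATPase, differed between its clones, at 1.27 ± 0.23 and 0.24 ± 0.88.

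Nearest to Pcbp1 were Smad1 (0.36), Hnrnpa0 (0.36), Gmfb (0.40), Paip2b (0.42) and Csnk2a1-rs4 (0.44), and 0 of these 5 had raised adjoining wells. Smad1, a transducer of bone morphogenetic protein signals, was at 0.58 ± 0.49, close to Pcbp1 in size and spread. Hnrnpa0, another hnRNP protein, was at 0.37 ± 0.25. Distances depend on how many genes share a member's score range and are not compared between members. Pcbp1 and Pcbp2 were 2.77 apart, and Ptbp1 lay 1.96 from Pcbp2 and 3.73 from Pcbp1.

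Runs of the HuR sample correlated across features at 0.80 to 0.87 and IgG runs at 0.77 to 0.88, while the differences correlated between run pairs at 0.03 to 0.31. Of 10 myoblast markers only Vim, an intermediate filament of mesenchymal cells, had a named clone (-0.10), so the labelled cell type could not be checked further on this array. The 6 hepatocyte and epithelial markers, taken as background genes in such cells, were all measured. Their differences ran from -0.43 (Alb) to just under 0 (Ttr), with a median of -0.15. Single clones at all signal levels ran from -0.54 (Krt8) to 0.20 (Krt18). Their spots were not all low with IgG alone, where Alb averaged 0.93, Apoa1 0.81 and Ttr 0.46. The IgG means of the Krt8 clones ran from -0.82 to 1.15, of Krt18 from -0.22 to 1.99 and of Cdh1 from -0.87 to 1.08.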

How the data were processed

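HuR and IgG immunoprecipitates of C2C12 cells were measured on a radiolabelled spotted cDNA array, per the labels' protocols. The authors deposited z scores for 6 runs, their means, a difference and a z ratio per clone, and a two-tailed p-value, per the file headers. The z scores averaged 0 with an SD of 1 in both array sections (8448 features each), as checked on the values. Nothing in the labels or headers names the scanner, the log base or a background correction. The series' value table held the same means as the clone table.

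Each run was centred on its section's median. Runs of the same number were paired, since deviations from the mean of an antibody correlated at 0.33 to 0.54, against -0.48 to 0.08 for other numbers. Gene numbers were turned into current symbols with the RefSeq gene table (GRCm38.p6) for 7527 features. A further 2676 kept the table's symbol, while 520 with conflicting numbers and 6173 without a name stayed unnamed. A gene took the median over its clones among the 8452 features at or above the median signal.

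With 1 sample per antibody, no p-value was computed, and the number of arrays limits the precision. Named genes were the members, the measured relatives, genes of adjoining wells at least 1 unit away from 0, and the 5 genes nearest to each member, plus genes said to be added, and 1 listed gene is not reported here. The members and lists were chosen with earlier results of these data known. Promoter stretches were aligned locally with Biopython 1.88 on RefSeq windows. Analyses used Python 3.11.15, numpy 2.4.6 and pandas 2.3.3, and were tested on simulated data.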

Additional observations from a re-analysis of the deposited data

How the results depend on the processing

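The differences of Pcbp2, Ptbp1 and Pcbp1 stayed above 0 and shifted by under 1 SD of the run pairs under quantile normalization, the scores as deposited, trimmed-mean centring, all signal levels, the median of run pairs, the brightest clone and subtraction of the adjoining wells. Leaving out 1 run pair gave 1.63 to 2.02 for Pcbp2, 0.88 to 1.03 for Ptbp1 and 0.31 to 0.77 for Pcbp1. For a gene with 1 clone such a mean always stays within that SD. In the brightest 25% of features Pcbp1 has no value. The median of the relatives ran from -0.14 to 0.05. The 132 higher features became 53 with the adjoining wells subtracted, 311 at a threshold of 0.6, 66 at 1.5, and 110 without plate 10, a setting chosen after seeing the data. Leaving out 1 run pair gave 126 to 191. Of 315 values of 30 named clones or genes, 299 shifted by under 1 SD of the run pairs and 16 by more. Many could not shift by more, such as the leave-one-out means and run-pair medians of single clones. The count is thus no measure of stability. While 0 values past the threshold changed sign, some smaller ones did. With the adjoining wells subtracted, C78807 went from 0.40 to -0.82 and Ak4 from 0.52 to -0.13. The cause of these shifts was not tested. No paired analysis was possible because there is only 1 sample per antibody to pair, and the pairing of runs gives a spread between runs but no test between samples. The files give no signal over background, which limits what dim clones can show.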
